A study of Rattus norvegicus with 112 samples.

Results

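The Nr4a receptors were followed through every treatment of a series of 112 Affymetrix arrays, each hybridised with RNA from rat cortical neurons in primary culture. The family was chosen by measured values: Nr4a1 and Nr4a3 were selected on their higher signal after NMDA, which opens a calcium-permeable class of glutamate receptor, in these same arrays. Of the 3 genes named (Nr4a1, Nr4a2 and Nr4a3), the array's annotation held 2 probe sets for Nr4a1 (U17254_at and U17254_g_at), 0 for Nr4a2, and 3 for Nr4a3 (X86003_at, rc_AI176710_at and rc_AI145834_at). The results therefore concern 2 of the 720 genes that the array's probe sets name, through 4 probe sets, and rc_AI145834_at is described apart because it was dim. Nr4a2 was not measured here. All contrasts of NMDA with cultures that lacked it were in view when the family was picked, so their values are given as a description with no test.

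The Nr4a proteins are orphan nuclear receptors: their ligand pocket is closed by bulky side chains, and their activity follows how much of the protein a cell makes. Nr4a1 (Nur77, or NGFI-B) and Nr4a3 (NOR-1) are immediate early genes, transcribed within minutes of depolarisation or calcium entry through CREB, MEF2 and related factors that are already in the nucleus. They bind the NBRE element as monomers, and in neurons they are known for roles in synapse density, mitochondrial function and survival after excitotoxic stress.

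Exposure to 1 mM NMDA was studied in 4 designs. In the first, NMDA stayed on the cultures until harvest, for 10, 30, 60, 180 or 360 min, beside a control (3 arrays a group, replicates 2, 3 and 4). In the second, a pulse of 10, 30 or 60 min was washed off and the cells were harvested 24 h later, beside a control (4 arrays a group). The third crossed 1 h of NMDA with 18 h of 10 uM nicotine, giving NMDA, nicotine, nicotine plus NMDA and control groups of 3. The fourth gave 30 min of NMDA, 18 h of nicotine, or both, followed by 24 h without the drugs, beside a control (5 arrays a group). Per the labels, its samples were run on arrays again after an oven failure, so there is a first run and a repeat run of 20 arrays each. Short nicotine (10 uM for 15 min, harvest 45 min after the medium change) and 2 uM 4R, described in the labels as a non-competitive antagonist at nicotinic receptors, were each set against their own controls in groups of 3. The 4R was given for 18 h, with harvest at once or after a further 24 h without it. The age, strain and sex of the animals are not given in the sources used here. Labels of the pulses, the crossed design and 18 h of 4R give each replicate a date, as they do for 4R with a day without, apart from control 3. Replicates 3 and 4 of each pulse group share a date, and so do replicates 4 and 5 of both groups of 4R with a day without. Nothing says that replicates which share a date, or those of the runs without dates, came from separate cultures, so p-values there measure the spread between these samples, which may be technical.

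Sequence was available for the promoter of Nr4a1 and is shown because the gene's signal was high in every NMDA group harvested at 60 min or later. The window runs from 250 bases before to 50 bases after the transcription start in the RefSeq annotation of GRCr8, at chr7:134259888-134260187 on the + strand. Capitals mark each copy of TGCGTCA, a cAMP response element (CRE)-like heptamer searched on both strands. It is printed 5′ to 3′.
Nr4a1 promoter: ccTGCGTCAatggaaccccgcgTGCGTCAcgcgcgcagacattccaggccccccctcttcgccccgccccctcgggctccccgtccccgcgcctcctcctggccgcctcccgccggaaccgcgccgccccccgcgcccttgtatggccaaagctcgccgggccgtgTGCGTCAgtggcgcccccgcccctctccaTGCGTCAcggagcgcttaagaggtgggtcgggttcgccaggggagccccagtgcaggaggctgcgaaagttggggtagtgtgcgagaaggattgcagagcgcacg
The heptamer occurred 4 times on the + strand and 0 times on the opposite strand, with first bases 248, 228, 84 and 55 bases before the start. Of 33469 promoter windows of the same length, 1.9% held at least 1 copy. Only 1 window, or 0.00299%, held 4 or more, and it was that of Nr4a1 itself. The shorter CRE core CGTCA, which lies inside the heptamer and so overlaps each copy, also occurred 4 times. Of the windows 21.2% held it, and 0.236% held 4 or more. The full CRE, TGACGTCA, was not in this window, while 1.83% of the windows held it, and the CArG box, searched by its consensus, was not in it either, against 1.64% of the windows. These are matches of letters in 1 window and not measured binding sites. Nr4a3 was not matched in the promoter table.

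The arrays of each replicated run had been scaled to a common level, with trimmed means between 2503 and 2513. Of the neuronal markers on the array, 10 of 10 passed the filter on dim probe sets in all 8 runs, as did 4 of 5 astrocyte and 3 of 5 oligodendrocyte markers. The 1 microglial marker on the array did not pass in every run, and no endothelial or meningeal marker was on it. A group of 5 arrays stood apart, with a median correlation to the others of their run under 0.8, where the remaining arrays lay between 0.86 and 0.97. They were replicate 3 at 360 min of continuous NMDA, replicate 3 of the 10 min pulse, replicate 4 of the 60 min pulse, and controls 3 and 4 of the repeat run. Their median correlations were 0.786, 0.627, 0.736, -0.023 and 0.506 in that order, so control 3 of the repeat run was unlike its whole run. The GAPDH 3′ to 5′ signal ratio of the 60 min pulse array was 12.3, and the sum over the neuronal markers was as low as 40847 in 1 array of the 10 min pulse and 48277 in 1 control of the repeat run. Most results of the Nr4a probe sets that rest on these arrays are given with and without them. The gene lists were counted only with them. Differences are on the log2 scale of signal plus an offset, the 10th percentile of the run's values. They were fitted with limma over all groups of a run for the 884 of 1263 probe sets that passed the filter, and the threshold was an adjusted p of 0.05. Precision is limited by how many arrays a group has. In these samples a lower count of neurons and less RNA per neuron cannot be told apart.

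While NMDA stayed on, the signal of Nr4a1 was near the control at 10 min, above it on average at 30 min and, with all arrays, highest on average at 60 to 180 min, with values still above every control at 360 min. By U17254_at, replicates 2, 3 and 4 read 1658, 1135 and 1316 in the control, 819, 1448 and 1611 at 10 min and 2994, 1514 and 3916 at 30 min. They read 14324, 4339 and 11103 at 60 min, 12549, 3359 and 13280.5 at 180 min and 10715, 2026 and 12335 at 360 min. Every array from 60 min on lay above every control, and replicate 3 was the lowest at each of those times. The group mean at 60 min was 9922 ± 5096 against 1369.9 ± 265 in the control (SD, n = 3 each), 7.24 times as high.

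U17254_g_at, the other Nr4a1 probe set, showed the same course with a larger change. It read 1848, 971 and 1236 in the control, 1274, 1899 and 1629 at 10 min and 4303, 2203 and 5323 at 30 min, then 18609, 5481 and 16973 at 60 min, 22992, 3952 and 25207 at 180 min and 14593, 3661 and 17437 at 360 min. All arrays from 30 min on were above all controls. On the log2 scale the difference from the control was 1.44 (SE 0.67, 95% interval 0.04 to 2.85) at 30 min, 3.12 (SE 0.67, 95% interval 1.71 to 4.53) at 60 min, 3.26 (SE 0.67, 95% interval 1.85 to 4.66) at 180 min and 2.83 (SE 0.67, 95% interval 1.42 to 4.23) at 360 min. For U17254_at the corresponding differences were 0.91, 2.63, 2.54 and 2.19, and at 10 min the 2 probe sets differed from the control by -0.11 and 0.26.

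Replicate 3 was also lowest when each array was set against the control of the same number. For U17254_g_at at 60 min the ratios of replicates 2, 3 and 4 were 10.1, 5.64 and 13.7, and at 180 min they were 12.4, 4.07 and 20.4. For U17254_at they were 8.64, 3.82 and 8.43 at 60 min and 6.46, 1.79 and 9.37 at 360 min. The GAPDH 3′ to 5′ ratio of replicate 3 was 1.41 at 60 min, 1.71 at 180 min and 2.25 at 360 min, against 1.26 to 1.64 in replicates 2 and 4 at these times. It reached 2.41 in an array at 10 min, and its part in these values was not tested.

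Nr4a3 gave 2 different courses through its 2 bright probe sets. By X86003_at the signal was already high at 30 min: the replicates read 1236, 1308 and 1219.7 in the control, 801, 1436 and 1718 at 10 min and 3686, 3393 and 4898 at 30 min. They read 3669, 2873 and 9328 at 60 min, 4684, 3383 and 8455 at 180 min and 10496, 956 and 8397 at 360 min. The arrays at 30, 60 and 180 min all exceeded the controls, and at 360 min replicate 3, the array that stands apart, was below them. The difference from the control was 1.59 (SE 0.65, 95% interval 0.22 to 2.96) at 30 min and 1.96 (SE 0.65, 95% interval 0.59 to 3.33) at 180 min, and at 60 and 360 min it was 1.81 and 1.76.

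By rc_AI176710_at, in contrast, the groups overlapped the control up to 60 min. The replicates read 4139, 6806 and 4824 in the control, 3991, 6397 and 5418 at 10 min, 4449, 6278 and 5158 at 30 min and 5602, 7436 and 5928 at 60 min. At 180 min they read 9726, 9867 and 15225, all above the controls, and at 360 min 13885, 5840.4 and 17277, with replicate 3 inside the control range. The differences from the control were 0.01, 0.03 and 0.28 (SE 0.34, 95% interval -0.43 to 0.99) at the first 3 times, then 1.13 (SE 0.34, 95% interval 0.42 to 1.84) at 180 min and 1.11 (SE 0.34, 95% interval 0.40 to 1.82) at 360 min. Without the 360 min array of replicate 3 the last difference became 1.57, and the 360 min differences of X86003_at, U17254_at and U17254_g_at became 2.82, 3.01 and 3.53.

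**Figure D1:**
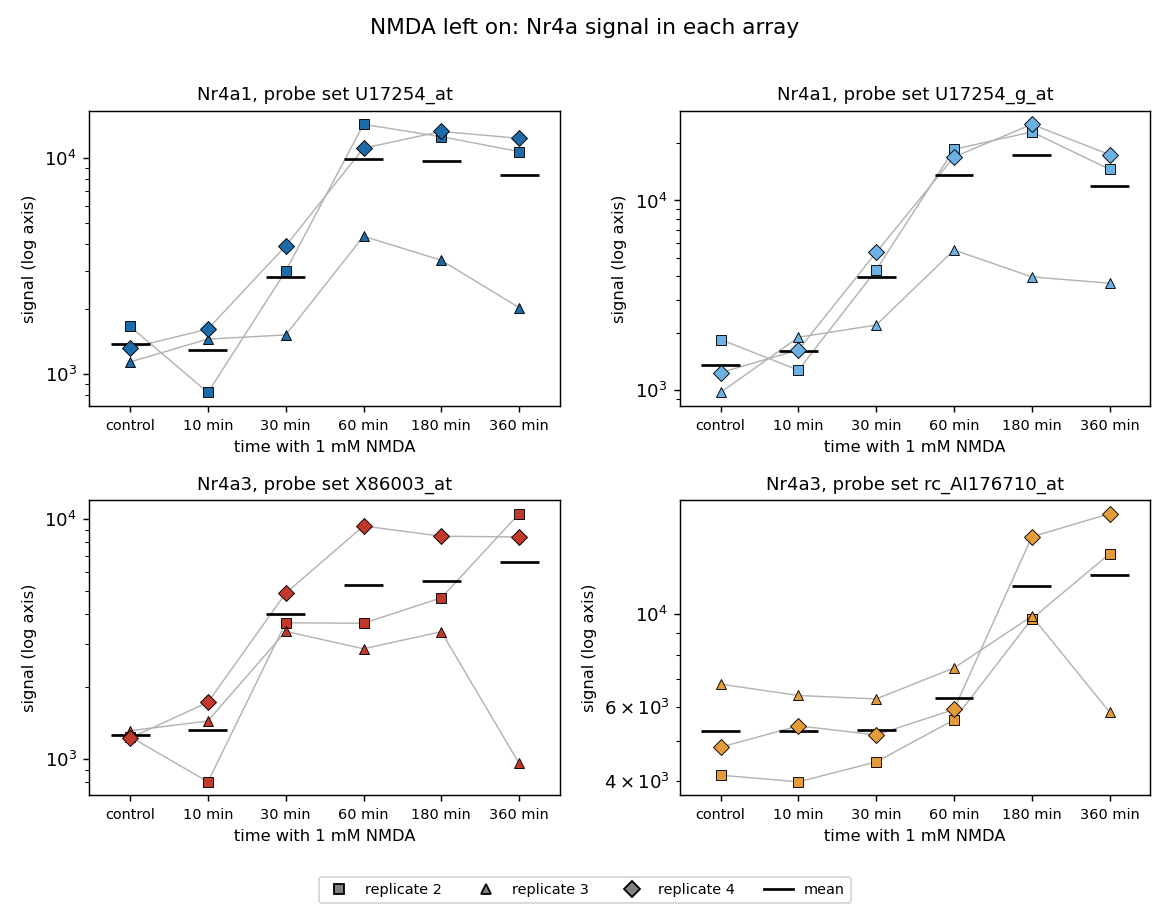
Signal of the 4 Nr4a probe sets in each array (log axis, arbitrary units after the authors' scaling) against time with 1 mM NMDA, with grey lines joining arrays of 1 replicate number, symbols for that number and bars for group means. Both Nr4a1 probe sets and X86003_at of Nr4a3 leave the control range at 30 to 60 min, rc_AI176710_at of Nr4a3 at 180 min, and replicate 3 is the lowest array at 360 min in every panel.

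In the fit of group means no step between neighbouring times passed the threshold anywhere on the array. There limma called 0% of 884 probe sets in each, with 76, 8, 9 and 52 at an unadjusted p under 0.05 in time order. With the replicate number as a block, 13 probe sets rose and 3 fell from 10 to 30 min, with no member among them. The later steps gave no call with the block either. The intervals given for this run, steps included, come from the fit of group means without the block and are not adjusted. For U17254_at the step from 30 to 60 min was 1.73 (SE 0.64, 95% interval 0.38 to 3.07) on the log2 scale, and for U17254_g_at 1.68 (SE 0.67, 95% interval 0.27 to 3.08). Their steps from 60 to 180 min were -0.10 (SE 0.64, 95% interval -1.44 to 1.25) and 0.14 (SE 0.67, 95% interval -1.27 to 1.54), so 60 and 180 min did not differ beyond their spread. Their steps from 180 to 360 min were -0.35 and -0.43, and 0.47 and 0.27 without the 360 min array of replicate 3. X86003_at had its step between 10 and 30 min, 1.58 (SE 0.65, 95% interval 0.21 to 2.95), and 0.23 or less in size at each later step, where the last was -0.20 with the 360 min array of replicate 3 and 0.86 without it. For rc_AI176710_at the step lay between 60 and 180 min, 0.85 (SE 0.34, 95% interval 0.14 to 1.56), and the steps before it were 0.02 and 0.26.

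The background of these contrasts was small. At 10, 30 and 360 min limma called no rise, 0% of 884 probe sets, with 63, 16 and 73 at an unadjusted p under 0.05, and 0 of the 4 members were called. At 60 min 0.679% rose past an adjusted p of 0.05, with 1 member among them (U17254_g_at), and at 180 min 0.452%, again with that member. With the replicate number as a block, since same-numbered arrays deviated together, 1.02%, 0.905% and 1.02% rose at 60, 180 and 360 min, with both Nr4a1 probe sets among them each time. At 30 min that fit called 4 rises among the 884, with no member among them. Every NMDA array lay above every control array at 3.73%, 3.28%, 3.17%, 2.94% and 4.19% of the probe sets at the 5 times in order, and at 0, 2, 3, 4 and 2 of the 4 members. Nothing is read from these member counts, since the same contrasts served to choose them. The 60 min count was 2 without replicate 3 of that group and 0 without any other single array of the comparison, and the same held at 180 min. At 360 min it was 4 without replicate 3 of that group.

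The 1 h exposure of the crossed design was a separate experiment, but its values were also in view when the family was picked. They divided the probe sets in a similar way. U17254_at read 5518, 5099.9 and 4866 with NMDA against 920.3, 776 and 1181 in the control, a log2 difference of 2.38 (SE 0.19, 95% interval 1.96 to 2.80). U17254_g_at read 9099, 11959 and 7908 with NMDA against 1319, 1566 and 2331 in the control, a difference of 2.45 (SE 0.25, 95% interval 1.91 to 3.00). The groups were far apart for both, and the NMDA means were 5.38 and 5.55 times the control means. X86003_at read 2136, 3469 and 1667 with NMDA against 732, 1272 and 684 in the control, a difference of 1.37 (SE 0.31, 95% interval 0.69 to 2.04), and did not overlap. rc_AI176710_at read 4389, 6461 and 3167 with NMDA against 4861, 6625 and 3223 in the control, and its groups overlapped almost fully, with a difference of -0.07 (SE 0.35, 95% interval -0.83 to 0.70).

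With nicotine present throughout, the NMDA effect had a similar shape. U17254_at read 5384, 5962 and 4438 with nicotine plus NMDA against 1306, 1309.9 and 1464 with nicotine alone, and U17254_g_at read 9224, 11740.1 and 7332 with nicotine plus NMDA against 1803, 1565 and 1926 with nicotine alone. X86003_at read 3319, 3100.0 and 2092 with nicotine plus NMDA against 905, 921 and 707 with nicotine alone. rc_AI176710_at read 5018, 5619 and 2844 with nicotine plus NMDA against 4719, 4435 and 2836 with nicotine alone, and overlapped, as the other 3 did not. The log2 differences were 1.90, 2.36, 1.66 and 0.14 for the 4 in the order given. Without nicotine 0.905% of probe sets rose past the threshold, 2 members among them (3 with the replicate number, which shares a date in the labels, as a block, where 1.24% rose), and with nicotine 1.02% rose, 3 members among them. Every NMDA array lay above every matched array at 4.98% and 6.45% of probe sets, and at 3 of 4 members each time.

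**Figure D2:**
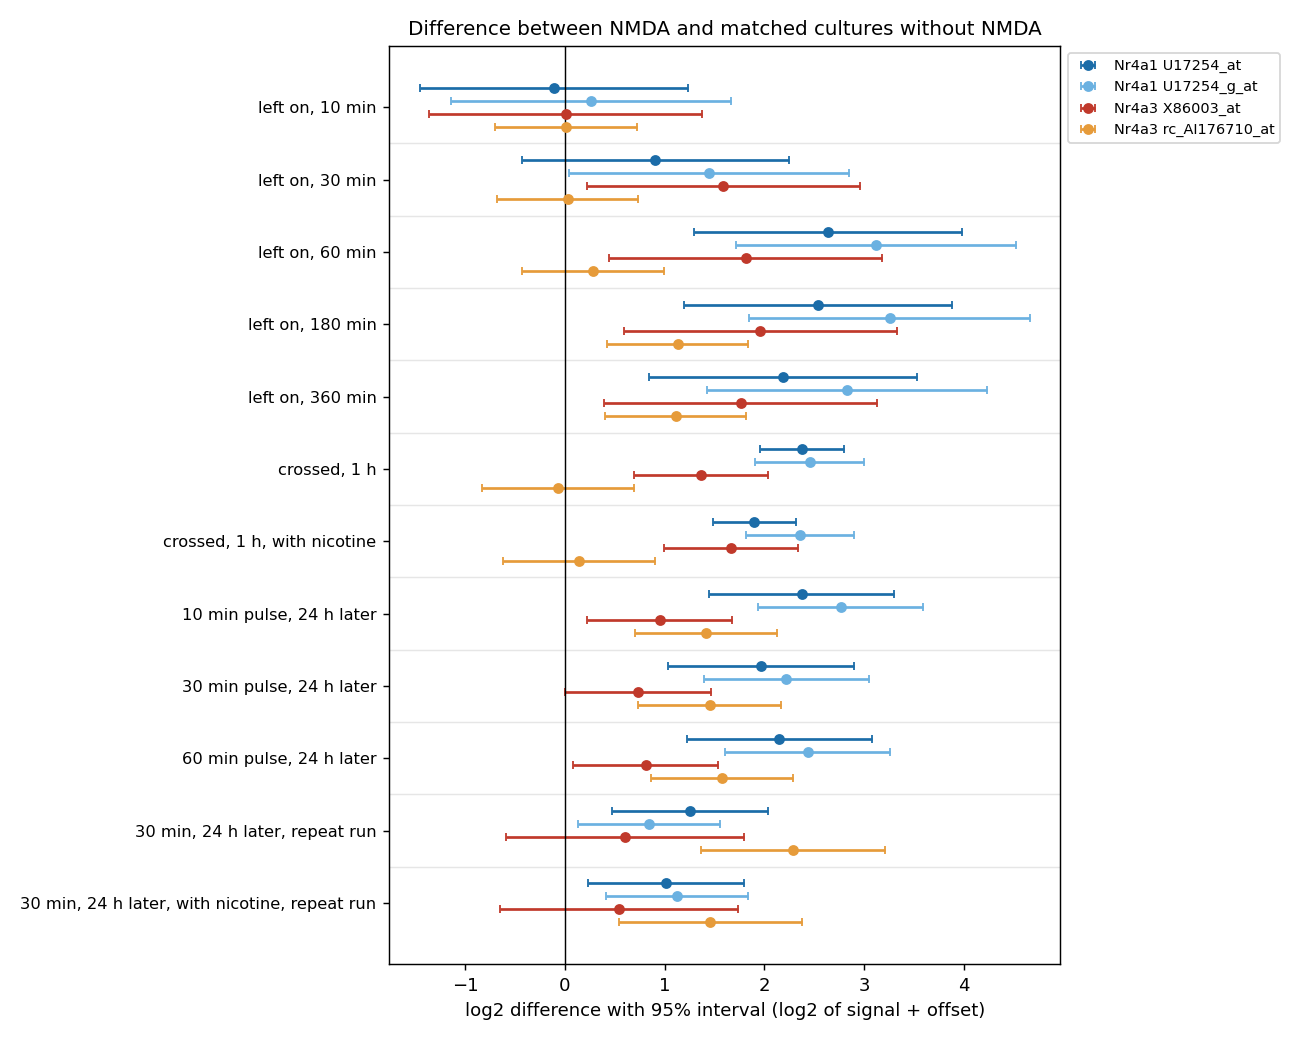
Log2 difference with its 95% interval for each Nr4a probe set (colours) in the 12 contrasts of NMDA with matched cultures that lacked it, listed down the page. The 3 early probe sets are high at 1 h while rc_AI176710_at is near 0, and a day after a pulse rc_AI176710_at exceeds X86003_at in every listed contrast. The first run of the fourth design and the second pulse set are not listed, and X86003_at was the higher in some of their contrasts.

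A day after the pulses, Nr4a1 remained well above the control, whichever length the pulse had. U17254_at read 1227, 1025, 647 and 1039.5 in controls 1 to 4, 7103, 3511, 11849 and 2534 after 10 min, 5085, 3539, 4781 and 2785 after 30 min and 6214, 2486, 4872 and 5345 after 60 min of NMDA. U17254_g_at read 1335, 1675, 1348 and 2149.7 in the controls, 13607, 8032, 23123 and 6248 after 10 min, 9022, 6561, 8802 and 6608 after 30 min and 11675, 5786, 7822 and 11925 after 60 min. Every treated array lay above every control in both. The log2 differences were 2.37 (SE 0.44, 95% interval 1.44 to 3.30), 1.97 (SE 0.44, 95% interval 1.03 to 2.90) and 2.15 (SE 0.44, 95% interval 1.22 to 3.08) for U17254_at at the 3 lengths in order, and 2.76, 2.22 and 2.44 for U17254_g_at.

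The Nr4a3 probe sets changed places in this run, with the larger difference now in rc_AI176710_at. By rc_AI176710_at, the late one, the controls read 2263, 3161, 4039 and 3029, and the pulsed cultures read 9653, 9359.6, 8546 and 5985 after 10 min, 8254, 7919.8, 9263 and 8502 after 30 min and 10329.9, 6038, 7078 and 16446 after 60 min, with no overlap. Its differences were 1.41 (SE 0.34, 95% interval 0.70 to 2.13), 1.45 (SE 0.34, 95% interval 0.74 to 2.16) and 1.57 (SE 0.34, 95% interval 0.86 to 2.29). By X86003_at, the early one, the controls read 1027, 995, 610.5 and 1106, and the pulsed cultures read 2058, 1677, 1344 and 2362, 1841, 919, 2101 and 1643 and 1640.3, 1047, 1851 and 2294 at the same lengths. The 30 and 60 min groups overlapped the controls in 1 array each, and the differences were 0.95 (SE 0.35, 95% interval 0.22 to 1.68), 0.73 (SE 0.35, 95% interval 0.00 to 1.46) and 0.81 (SE 0.35, 95% interval 0.08 to 1.54).

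**Figure D3:**
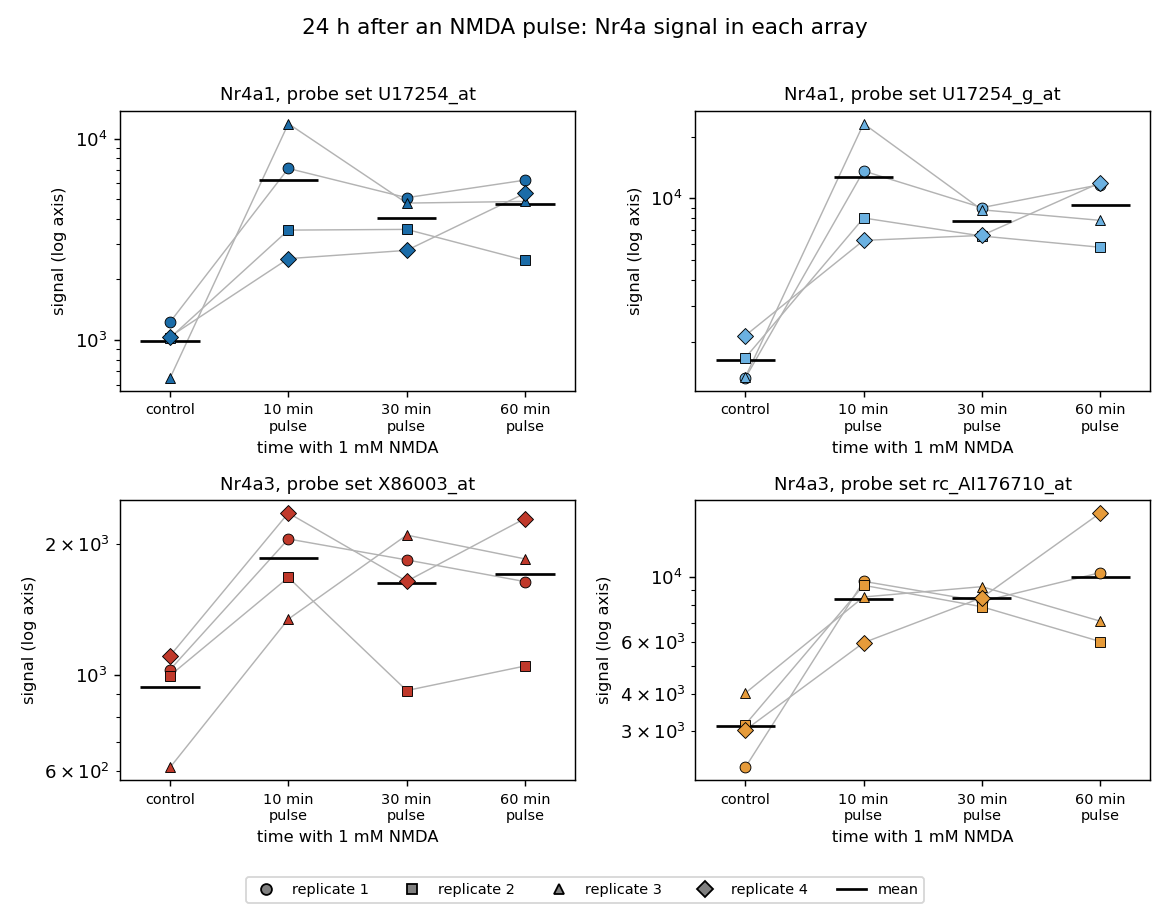
Signal of the 4 Nr4a probe sets in each array (log axis) for the control and for cultures harvested 24 h after 10, 30 or 60 min of NMDA, with grey lines joining arrays of 1 replicate number, symbols for that number and bars for group means. Both Nr4a1 probe sets and rc_AI176710_at of Nr4a3 lie above all controls after every pulse, and X86003_at overlaps them after 30 and 60 min.

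At these 3 pulse lengths 2.26%, 1.36% and 1.58% of probe sets rose past the threshold, with 3 members each time (all but X86003_at), and every pulsed array exceeded every control at 3.62%, 3.28% and 3.62% of probe sets and at 4, 3 and 3 members. After 10 min without replicate 3 and after 60 min without replicate 4, the arrays that stand apart, U17254_at differed by 1.98 and 2.07 U17254_g_at by 2.42 and 2.30, rc_AI176710_at by 1.39 and 1.30 and X86003_at by 1.09 and 0.65, and 3 members were called at each length. The 30 min count was 1 without any 1 of replicates 1, 2 or 3 of that group or of controls 2, 3 or 4, and 2 without either of the other arrays, and the 60 min count was 1 without replicate 1 of that group. Replicate 1 of the 30 min pulse carries 60 min in one of its label fields.

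The length of the pulse was tested between pulse groups, and no member passed. That contrast did not itself choose the members, but the values of these groups did. It therefore cannot decide whether the length matters for them. U17254_g_at differed between the 60 and 10 min pulses by -0.33 (SE 0.39, 95% interval -1.16 to 0.50) with limma's adjusted p = 0.991, and between the 30 and 10 min pulses by -0.55 (SE 0.39, 95% interval -1.37 to 0.28) with an adjusted p of 0.998. rc_AI176710_at differed by 0.16 (SE 0.34, 95% interval -0.55 to 0.88) and 0.04 (SE 0.34, 95% interval -0.68 to 0.75). Without the arrays that stand apart the 4 differences were -0.12 and -0.20 for U17254_g_at and -0.10 and 0.06 for rc_AI176710_at. Each interval given spans 0. Across the array 0% of 884 probe sets passed in either contrast, with 9 and 6 at an unadjusted p under 0.05.

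A second pulse set had 1 array a group and so no replicate check. U17254_g_at read 1384 in its control and 8748, 8281 and 7852 after 10, 30 and 60 min, and U17254_at read 832 in the control and 4005, 4278 and 3835. rc_AI176710_at read 3977 in the control and 8274, 7781 and 4869.8, so that its last pulse lay close to the control. X86003_at read 649 in the control and 1474, 1214 and 1305. On the log2 scale rc_AI176710_at differed by 1.05, 0.96 and 0.29, and X86003_at by 1.12, 0.85 and 0.95. Here X86003_at thus had the larger difference after 10 and 60 min, and rc_AI176710_at after 30 min. A rise of at least 1 on the log2 scale was seen at 9.39%, 9.39% and 9.62% of probe sets, and at 4, 2 and 2 of the 4 members. Arrays were repeated for 4 pulse samples. The repeat of replicate 3 after 10 min equals its first array within 0.05 at all 1322 probe sets and was counted once, and the other 3 correlated with their first arrays at 0.888, 0.923 and 0.809.

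The fourth design also gave 30 min of NMDA and then 24 h without it, and was read in 2 array runs of the same samples. In the repeat run U17254_at read 2824, 3383, 2063, 3615 and 1875 after NMDA against 1181, 1169, 380.2, 2903 and 924 in the control. U17254_g_at read 4032, 4185, 3249, 4887 and 2189 after NMDA against 1549, 1390.3, 4472, 2172 and 1396 in the control. Both overlapped through controls 3 and 4, the arrays that stand apart: control 4 was the high one for U17254_at and control 3 for U17254_g_at. rc_AI176710_at read 9669.5, 9183, 8451, 6414 and 6544 after NMDA against 2294, 3155, 712, 398 and 4307 in the control, with those same 2 controls the lowest. X86003_at read 1441, 1559.9, 887, 667 and 1078 after NMDA against 682, 1020.1, 248, 896 and 933 in the control and overlapped.

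The first run of these samples holds no array that stands apart. U17254_at read 2928, 3577, 2693, 3304 and 1870.5 after NMDA against 1028, 1284, 1198, 1963 and 1039 in the control, and U17254_g_at read 3603, 4205, 3207, 4402 and 1909.5 after NMDA against 1075, 1521, 1379.6, 2391 and 1397 in the control. Replicate 5 after NMDA was the lowest treated array in both, and lay under control 4. rc_AI176710_at read 9392, 11688, 9887, 7534 and 7219.5 after NMDA against 3753, 3752, 3639.6, 3807 and 4979.5 in the control, with no overlap. X86003_at read 1652, 1553, 744, 730.3 and 1107 after NMDA against 475, 941, 547, 129 and 393 in the control, and overlapped through control 2.

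Set side by side, the log2 difference of U17254_at was 1.25 in the repeat run, 1.25 in it without controls 3 and 4, and 1.12 in the first run, with SEs of 0.38, 0.27 and 0.19. That of U17254_g_at was 0.84 in the repeat run, 1.28 in it without controls 3 and 4, and 1.12 in the first run. That of rc_AI176710_at was 2.29 in the repeat run, 1.32 in it without controls 3 and 4, and 1.17 in the first run, with SEs of 0.44, 0.22 and 0.17. That of X86003_at was 0.60 in the repeat run, 0.30 in it without controls 3 and 4, and 1.25 in the first run, with SEs of 0.57, 0.65 and 0.42. In the first run it was thus above that of rc_AI176710_at, the reverse of the repeat run. Both Nr4a1 probe sets and rc_AI176710_at lay between 1.12 and 1.32 once the 2 arrays were left out or the first run was used. X86003_at was also above the control on average each time, and varied with the run.

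In cultures that had also received nicotine, the NMDA difference of rc_AI176710_at was 1.46 in the repeat run and 1.44 in the first. Its arrays read 10029.5, 8470.3, 10180.2, 7607 and 6851 after nicotine plus NMDA against 3064, 2860.4, 2583, 2686 and 4424 after nicotine alone in the repeat run. U17254_at and U17254_g_at differed by 1.01 and 1.12 in the repeat run and by 0.96 and 1.06 in the first. X86003_at differed by 0.54 and 0.68.

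In the repeat run 0.226% of probe sets rose past the threshold after NMDA, with 1 member (rc_AI176710_at), and 0.905% without controls 3 and 4, with 3 members. In the first run 11% rose, with 3 members. The count in the repeat run was 2 without control 4, and 0 without any 1 of NMDA replicates 1 to 4. With nicotine, limma called 0% in the repeat run, with 40 of 884 at an unadjusted p under 0.05 and 0 members. It called 2.04% in the fit without controls 3 and 4 and 1.58% in the first run, with 3 members each. Every NMDA array exceeded every matched array at 1.36% of probe sets without nicotine and 3.05% with it in the repeat run (1 member each), and at 7.58% and 2.6% in the first run (1 and 2 members).

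**Figure D4:**
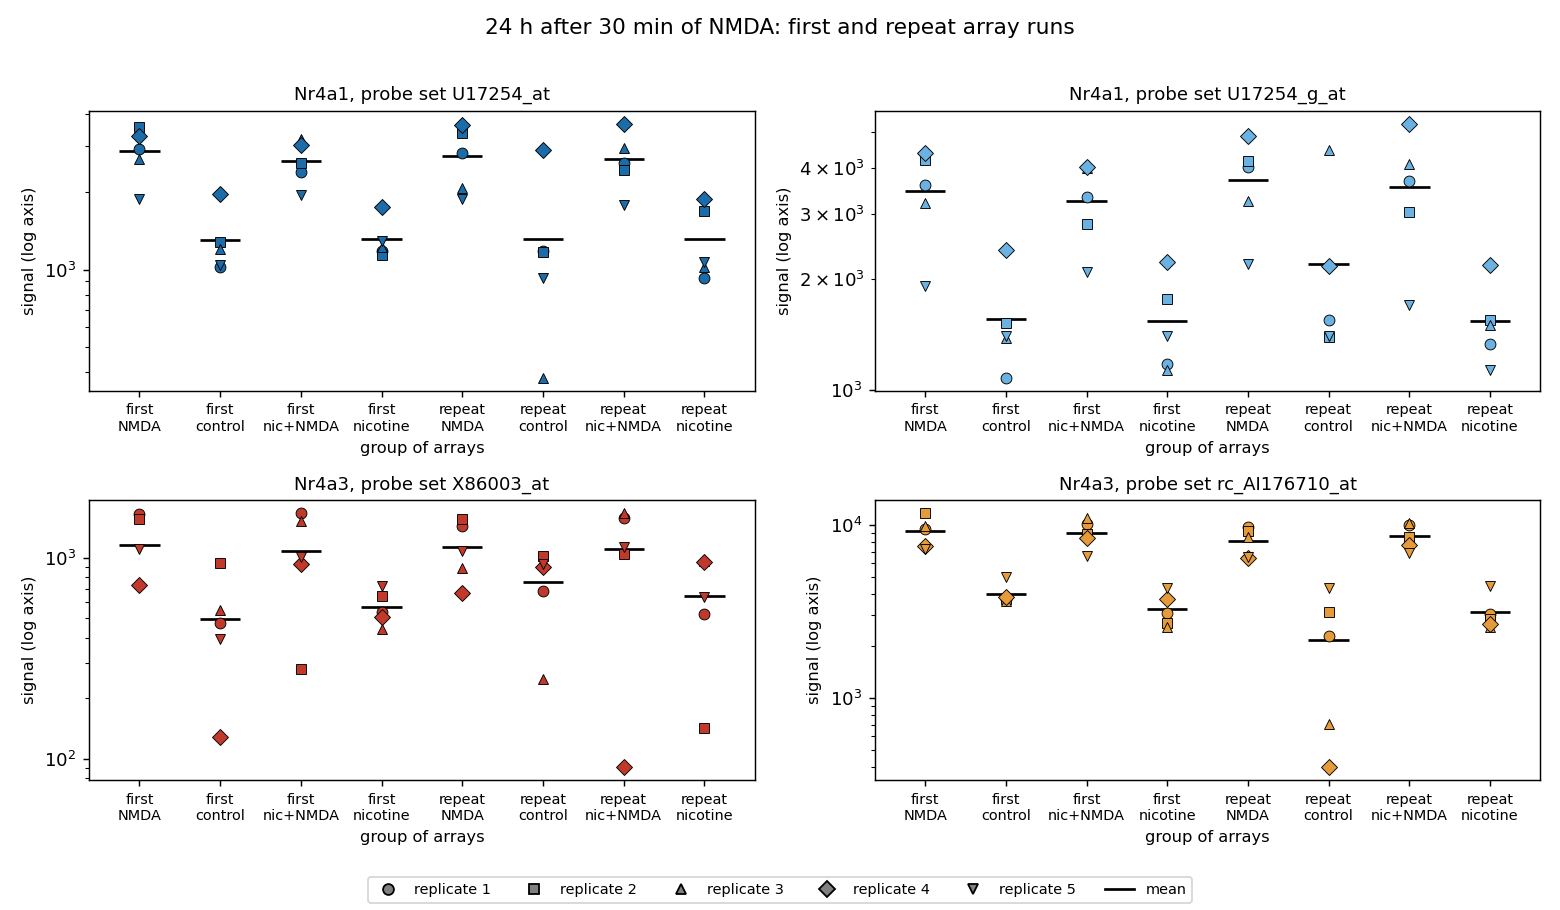
Signal of the 4 Nr4a probe sets in each array (log axis) 24 h after the drugs were removed, for the first and the repeat array run of the same samples, with symbols for replicate number and bars for group means; nic is nicotine. The NMDA groups of rc_AI176710_at lie above their controls in both runs, and in that panel controls 3 and 4 of the repeat run lie below its other controls.

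The Nr4a1 difference was numerically larger 24 h after the 30 min pulse than after the 30 min exposure of the fourth design, but the test of that difference did not pass. For U17254_g_at it was 1.38 (SE 0.52, 95% interval 0.31 to 2.44, limma's adjusted p = 0.558) against the repeat run and 1.10 (SE 0.44, 95% interval 0.20 to 2.00, limma's adjusted p = 0.630) against the first run. Against the repeat run without the arrays that stand apart it was 0.94 (SE 0.42, 95% interval 0.08 to 1.80, limma's adjusted p = 0.437). For rc_AI176710_at it was -0.84 (SE 0.59, 95% interval -2.03 to 0.35, limma's adjusted p = 0.657) against the repeat run, 0.13 (SE 0.32, 95% interval -0.52 to 0.78, limma's adjusted p = 0.914) without the arrays that stand apart, and 0.28 (SE 0.33, 95% interval -0.40 to 0.96, limma's adjusted p = 0.889) against the first run. Nor did the 60 min effect of continuous NMDA differ past the threshold from the 1 h effect of the crossed design: the difference was 0.26 (SE 0.75, 95% interval -1.29 to 1.80, limma's adjusted p = 0.998) for U17254_at and 0.45 (SE 0.80, 95% interval -1.19 to 2.09, limma's adjusted p = 0.998) for X86003_at. In these comparisons across experiments 0% of 812, 847 and 843 probe sets passed, and 0.123% of 812 in the one without the arrays that stand apart, with 0 members. The effects compared were in view when the members were picked, and each experiment had its own array run. These tests therefore cannot decide whether the members differ between experiments. The intervals are not adjusted.

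Nicotine alone and 4R did not choose the members, and their effects were tested. The contrasts of nicotine plus NMDA with NMDA, and the interactions, hold NMDA groups whose values chose the members. They therefore cannot decide whether nicotine alters the NMDA effect on them. No Nr4a probe set passed in any of these contrasts, and limma called 0% of 884 probe sets in each. After 18 h of nicotine U17254_at read 1306, 1309.9 and 1464 against 920.3, 776 and 1181 in the control and differed by 0.50 (SE 0.19, 95% interval 0.08 to 0.92) with an adjusted p of 0.716. Every nicotine array was the higher, as at 3.62% of the probe sets tested and at 1 of the 4 members. U17254_g_at, on the same gene, read 1803, 1565 and 1926 with nicotine against 1319, 1566 and 2331 in the control and differed by 0.06 (SE 0.25, 95% interval -0.49 to 0.60). X86003_at and rc_AI176710_at differed by -0.04 (SE 0.31, 95% interval -0.71 to 0.64) and -0.27 (SE 0.35, 95% interval -1.03 to 0.50). Nicotine on top of NMDA, against NMDA alone, gave U17254_at a difference of 0.02 (SE 0.19, 95% interval -0.40 to 0.44) and rc_AI176710_at one of -0.05 (SE 0.35, 95% interval -0.82 to 0.71), and the interaction of both drugs was -0.48 (SE 0.27, 95% interval -1.07 to 0.11) for U17254_at with an adjusted p of 0.997.

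A day after nicotine, rc_AI176710_at read 3064, 2860.4, 2583, 2686 and 4424 against 2294, 3155, 712, 398 and 4307 in the control of the repeat run, a difference of 0.93 (SE 0.44, 95% interval 0.01 to 1.85) with an adjusted p of 0.226. This difference was -0.04 without controls 3 and 4 and -0.29 in the first run. U17254_at differed by 0.21 (SE 0.38, 95% interval -0.57 to 0.99), and the interaction with NMDA was -0.24 (SE 0.53, 95% interval -1.34 to 0.87) for it and -0.83 (SE 0.63, 95% interval -2.13 to 0.47) for rc_AI176710_at. Without controls 3 and 4 and in the first run the interaction was -0.24 and -0.15 for U17254_at, and 0.14 and 0.27 for rc_AI176710_at, whose direction thus turned. Nicotine plus NMDA against NMDA alone gave -0.03 (SE 0.38, 95% interval -0.81 to 0.76) for U17254_at and 0.10 (SE 0.44, 95% interval -0.82 to 1.02) for rc_AI176710_at.

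After 15 min of nicotine, U17254_g_at read 8482, 9681 and 8538 against 6233, 10486 and 11469.6 in the control, a difference of -0.03 (SE 0.20, 95% interval -0.48 to 0.41) with an adjusted p of 1.00. rc_AI176710_at read 4833, 5055 and 4406 with nicotine against 6671, 5504 and 5374 in the control, and differed by -0.29 (SE 0.13, 95% interval -0.58 to 0.00). Every nicotine array was the lower there, as at 5.43% of the probe sets tested. After 18 h of 4R, U17254_at read 1506, 1152 and 879.7 against 1406, 1029 and 1025 in the control, a difference of 0.01 (SE 0.24, 95% interval -0.54 to 0.56). X86003_at read 797, 93.6 and 907 with 4R against 549, 582 and 752 in the control, with 1 very low 4R array and an interval as wide as -1.98 to 1.11. A day after 4R, U17254_g_at read 1261, 989 and 1308 against 1279, 1343 and 1523 in the control, a difference of -0.21 (SE 0.22, 95% interval -0.71 to 0.28), and rc_AI176710_at differed by 0.00 (SE 0.38, 95% interval -0.87 to 0.88).

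In the order nicotine 18 h, nicotine plus NMDA, their interaction, the same 3 a day later, nicotine 15 min, 4R 18 h and 4R with a day without, the probe sets at an unadjusted p under 0.05 numbered 40, 14, 16, 187, 4, 33, 29, 20 and 14 of 884. The 187 arose in the repeat run against its control group, which holds the 2 arrays that stand apart. Intervals of the Nr4a1 probe sets in the short nicotine and 4R contrasts reached from -0.71 at the lowest to 0.57 at the highest.

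**Figure D5:**
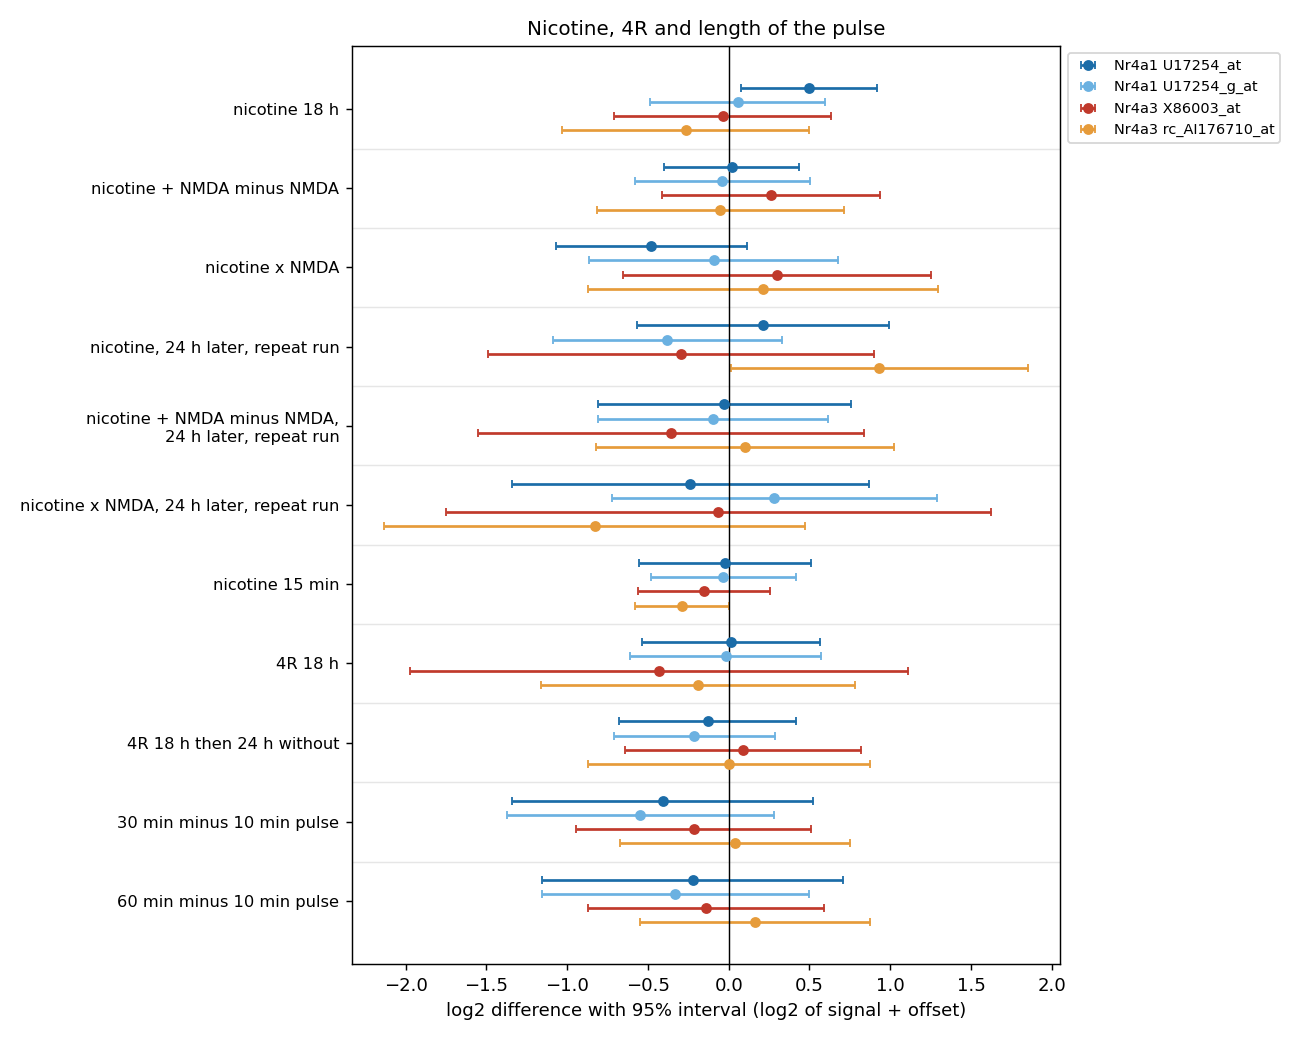
Log2 difference with its 95% interval for each Nr4a probe set (colours) in the 11 contrasts of nicotine, 4R and pulse length, listed down the page; x between drug names marks an interaction. Intervals span 0 except for U17254_at after 18 h of nicotine and rc_AI176710_at a day after nicotine in the repeat run, and no difference passed the adjusted threshold.

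Patterns were compared as log2 differences from the own control over 17 treated groups. The 669 probe sets compared passed the filter in each of their runs. These were all replicated runs but the first run of the fourth design. In that run, which holds no array that stands apart, the NMDA differences of X86003_at and rc_AI176710_at were 1.25 and 1.17. With nicotine they were 0.68 and 1.44. Groups of a run share their control, so these correlations describe likeness and carry no p. The 2 Nr4a1 probe sets correlated at 0.964 (Pearson's r). Early X86003_at of Nr4a3 correlated with U17254_g_at of Nr4a1 at 0.905 but with rc_AI176710_at, annotated to its own gene, at 0.106. Without the arrays that stand apart this last value was 0.352, and that between U17254_g_at and rc_AI176710_at was 0.589, against 0.259 with them.

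The genes whose pattern was most like U17254_g_at were Fos (0.978), Nr4a3 by X86003_at (0.905), Junb (0.88), Jun next and Cebpb (0.751), all transcription factors. Those most like X86003_at were Fos (0.948), Nr4a1 (0.905), Junb (0.891), Egr1 (0.858) and Jun (0.726), and those most like U17254_at were Fos (0.92), Jun (0.902), Nr4a3 (0.852), Cebpb (0.817) and the potassium channel gene Kcna1 (0.797). The list of rc_AI176710_at held none of these. It was led by Sst, the neuropeptide somatostatin (0.929), followed by the chemokine Cx3cl1 (0.874), the transcription cofactor Cited2 (0.867), the sodium pump subunit Atp1b1 (0.849) and the opioid precursor Penk (0.848). Without the arrays that stand apart 4 of 5 genes stayed on the list of each Nr4a1 probe set and 5 of 5 on that of X86003_at. On that of rc_AI176710_at 1 of 5, Sst (0.952), stayed, and the list then held Igf1 (0.896), Cebpb (0.884), Bdnf (0.884) and Crem (0.876).

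Of the other immediate early transcription factors, some rose at 60 and 180 min, at 1 h in the crossed design and a day after the pulses: 16 of 98 tests over the 12 NMDA contrasts passed, all as rises. At 10, 30 and 360 min of continuous NMDA and in both contrasts of the repeat run 0 passed. Of all probe sets 0% rose past the threshold there, apart from 0.226% in the repeat run without nicotine, and at most 2.26% in any of the 12 contrasts. The first run was not among these contrasts, and the arrays that stand apart were left in. Of 27 listed, 9 were on the array and 8 or 9 were tested per contrast. Egr1, a zinc finger factor, rose at 60 min of continuous NMDA by 2.29 on the log2 scale (SE 0.45, limma's adjusted p = 0.0257), and Fos, a subunit of AP-1, rose at 180 min by 2.36 (SE 0.46, adjusted p = 0.0409). At 1 h in the crossed design Fos rose by 1.94 and Junb, another AP-1 subunit, by 2.19, and with nicotine Fos rose by 2.09, Junb by 2.37 and Egr1 by 1.38. A day after the 10, 30 and 60 min pulses, 4, 2 and 3 of 8 rose: Crem, a CREB-family factor, by 2.42, 2.08 and 2.12, Fos by 2.23, 1.96 and 1.77, Jun by 1.33 and 1.47 at 10 and 60 min, and Junb by 1.75 at 10 min. In the 12 contrasts 0 fell. The list's median lay between 0.31 and 1.62 over the 12 NMDA contrasts, against -0.11 to 0.05 for all probe sets.

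A few activity-regulated effector genes passed a day after the pulses. Of 27 listed, 12 were on the array, and the 7 calls in 134 tests over the 12 NMDA contrasts all came from the pulse run. In the repeat run of the fourth design 0 passed, where 0.226% of all probe sets rose without nicotine and 0% with it. Its controls hold 2 arrays that stand apart, and the lists were counted neither without such arrays nor in the first run. After the 10, 30 and 60 min pulses 3, 2 and 2 of 11 tested rose: Bdnf, a neurotrophin, by 3.12, 2.68 and 2.90, Penk, a precursor of enkephalins, by 1.86, 1.74 and 1.83, and Nptx2, a synaptic pentraxin, by 2.29 after 10 min. The medians over the 12 NMDA contrasts ran from -0.12 to 0.97. The other nuclear receptors on the array (Esr2, Nr1h2, Rara, Rarb, Rxrg and Thra), 4 of them tested, gave limma calls in 0 of 48 tests over these contrasts, with 2 at an unadjusted p under 0.05. Genes of calcium and cAMP signalling gave 0 of 181, with 5 unadjusted. Genes known as Nr4a-regulated (Crh, Ddc, Drd2, Slc18a2, Slc6a3 and Th on the array, 3 or 4 tested) gave 0 of 46, with 2 unadjusted. Between 0% and 2.26% of all probe sets rose past the threshold in these contrasts, so 0 calls in lists of this size lies near that share. Nothing is read from it. Under nicotine, 4R and the pulse length no gene of the 5 lists was called, and 0, 5, 0, 6 and 0 were under an unadjusted 0.05 in the order given here. These lists were drawn up with earlier results of these data known.

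The third Nr4a3 probe set, rc_AI145834_at, passed the filter in 1 of 8 runs, the repeat run, where controls 3 and 4 that stand apart read 4325 and 2634. In the continuous run its signal lay between 52.9 and 643 over all arrays, with the highest and lowest value in NMDA groups. No change is reported from it. Nr4a3 therefore rests on 2 probe sets that give different courses, and which transcript each reads was not tested.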

How the data were processed

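Each sample is total RNA of rat cortical neurons hybridised to an Affymetrix array of 1322 probe sets. The deposited values are linear intensities per probe set. The authors had scaled them to a common trimmed mean, as the deposited values themselves show, and the software and the background method are not given in the sources used here. After 59 control probe sets were left out, 1263 remained, of which 1137 name 1 gene, 8 several and 118 none. Values were used as log2 of intensity plus an offset (10th percentile of the run's positive values, 57.15 to 88.14), which understates changes of dim probe sets. Probe sets whose run mean lay below the 30th percentile were dropped, leaving 884.

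Group means were fitted for all groups of a run together in limma 3.58.1 under R 4.3.3, with an intensity trend, 2-sided tests and Benjamini-Hochberg adjustment. The fit was tested on simulated data. The members, gene lists and contrasts were chosen with earlier results of these data known. Per contrast, up to 4 called genes of a list and, per member, the 5 genes most alike were named. Replicate numbers pair the arrays of the continuous run, where all 45 correlations of deviations lay between 0.122 and 0.563. Numbers share a date in the labels for the pulses, the crossed design and 18 h of 4R, with correlations of -0.169 to 0.621, 0.0261 to 0.534 and 0.46 to 0.528, and 2 of the 3 pairs of 4R with a day without share one too (0.0306 to 0.525). The repeat run stands for the fourth design, since the labels say that its samples were run again after an oven failure. Alternatives were other offsets, filters and normalizations, the replicate block, narrower fits, the other run and single arrays left out.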

Additional observations from a re-analysis of the deposited data

Results flagged for a closer look

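In groups of 4 or 5 arrays, 60 combinations of group and probe set were searched for 1 array far from the others, and 3 were found, where chance gives about 1 in 20. X86003_at of Nr4a3 read 90.4 in replicate 4 of the nicotine plus NMDA group of the repeat run, far below the others of that group. rc_AI176710_at of Nr4a3 read 4979.5 in control 5 of the first run, above the other 4 controls, and still below every NMDA array of that run. The dim probe set rc_AI145834_at read 18.4 in control 4 of the first run, far below the other controls, at a level where the probe set did not pass the filter.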

How the results depend on the processing

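The settings tried changed no direction of a called NMDA difference, and the count of the 4 members past the threshold moved as follows. With quantile normalization or median centring it was 0 at 60 and at 180 min of continuous NMDA and 0 for NMDA in the repeat run of the fourth design. With only the groups compared in the fit it was 1 at 30 min, 2 at 60 min, 0 at 180 min, 0 for NMDA in the repeat run and 1 with nicotine there. With the replicate number as a block (paired arrays) it was 2 at 60, 180 and 360 min, and 2 for NMDA in the repeat run, where the arrays share only a number. Without the arrays that stand apart it was 3, 4 and 4 at 60, 180 and 360 min and 3 in both contrasts of the repeat run, and without replicate 3 in every group it was 1, 2, 4 and 4 at 30, 60, 180 and 360 min. Both of these were chosen after seeing the data. In the first run the count was 3 in both contrasts, and with the mean of both runs 2 in both. The cause of these shifts was not tested.

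Leaving out 1 array at a time gave counts of 0 to 2 at 60 and at 180 min, 0 to 4 at 360 min, 2 to 3, 1 to 2 and 1 to 3 after the 10, 30 and 60 min pulses, 2 to 3 in both NMDA contrasts of the crossed design, and 0 to 2 in the repeat run. The other counts stayed at 0. The 30 min pulse replicate with 60 min in one label was among the arrays left out.

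Of the 44 nicotine, 4R and pulse-length differences, none of which passed the threshold, 17 turned their sign under another setting. With quantile normalization, nicotine a day later gave 0.19 for X86003_at, the interaction a day later gave -0.10 for U17254_g_at, 15 min of nicotine gave 0.0425 for U17254_at, 18 h of 4R gave 0.0042 for U17254_g_at, and 4R a day later gave -0.0247 for rc_AI176710_at and -0.0555 for X86003_at. With median centring, 18 h of nicotine gave -0.007 for U17254_g_at, nicotine plus NMDA against NMDA at 1 h gave -0.0403 for U17254_at, nicotine a day later gave 0.11 for U17254_g_at and 0.20 for X86003_at, nicotine plus NMDA against NMDA a day later gave 0.0699 for U17254_at, the interaction a day later gave -0.11 for U17254_g_at, and 4R a day later gave -0.14 for rc_AI176710_at and -0.054 for X86003_at. In the first run, nicotine a day later gave -0.29 for rc_AI176710_at and 0.35 for X86003_at, nicotine plus NMDA against NMDA a day later gave -0.0231 for rc_AI176710_at, and the interaction a day later gave -0.0614 for U17254_g_at and 0.27 for rc_AI176710_at. With the mean of both runs, nicotine a day later gave 0.0282 for X86003_at. Without the arrays that stand apart (a choice made after seeing the data), nicotine a day later gave 0.0528 for U17254_g_at and -0.0393 for rc_AI176710_at, the interaction a day later gave -0.15 for U17254_g_at, 0.14 for rc_AI176710_at and 0.25 for X86003_at, and the 60 against the 10 min pulse gave 0.0825 for U17254_at and -0.0967 for rc_AI176710_at. With repeat arrays in place of the first, the 60 against the 10 min pulse gave -0.12 for rc_AI176710_at, and the 30 against the 10 min pulse gave -0.17 for rc_AI176710_at. With single arrays left out, 31 of them turned their sign, with these ranges. For 18 h of nicotine, U17254_g_at ran from -0.12 to 0.28 and X86003_at ran from -0.19 to 0.23. For nicotine plus NMDA against NMDA at 1 h, U17254_at ran from -0.0754 to 0.14, U17254_g_at ran from -0.21 to 0.13 and rc_AI176710_at ran from -0.30 to 0.24. For the interaction at 1 h, U17254_g_at ran from -0.32 to 0.0785 and rc_AI176710_at ran from -0.0349 to 0.51. For nicotine a day later, X86003_at ran from -0.61 to 0.10 and U17254_at ran from -0.13 to 0.55. For nicotine plus NMDA against NMDA a day later, X86003_at ran from -0.60 to 0.28, U17254_at ran from -0.15 to 0.11 and U17254_g_at ran from -0.27 to 0.14. For the interaction a day later, X86003_at ran from -0.46 to 0.58, U17254_at ran from -0.58 to 0.11 and U17254_g_at ran from -0.0086 to 0.52. For 15 min of nicotine, U17254_g_at ran from -0.30 to 0.13, X86003_at ran from -0.27 to 0.0155 and U17254_at ran from -0.26 to 0.22. For 18 h of 4R, U17254_at ran from -0.17 to 0.20, U17254_g_at ran from -0.21 to 0.22, rc_AI176710_at ran from -0.46 to 0.30 and X86003_at ran from -0.90 to 0.42. For 4R a day later, U17254_at ran from -0.26 to 0.0454, rc_AI176710_at ran from -0.32 to 0.27 and X86003_at ran from -0.19 to 0.27. For the 60 against the 10 min pulse, U17254_at ran from -0.57 to 0.17, X86003_at ran from -0.30 to 0.0671, rc_AI176710_at ran from -0.11 to 0.36 and U17254_g_at ran from -0.61 to 0.0167. For the 30 against the 10 min pulse, X86003_at ran from -0.36 to 0.0242 and rc_AI176710_at ran from -0.11 to 0.11.

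The offsets, the filters, the narrower fits and the replicate block turned no sign. Of the 48 NMDA differences 4 turned under other settings and 6 with single arrays left out, and of the 20 steps between times 9 and 12, and none of these had passed the threshold. The 10 min U17254_at difference ran from -0.29 to 0.16, the 30 min and crossed 1 h rc_AI176710_at differences from -0.13 to 0.23 and from -0.34 to 0.18, and the 60 to 180 min step of U17254_at from -0.61 to 0.54. The block also raised the count to 3 for 1 h of NMDA in the crossed design, by X86003_at, and changed no other call of a member. The fourth design and the short nicotine run share only replicate numbers, while in 4R with a day without 2 of 3 pairs also share a date. The number of arrays limits what can be told from 0, and probe sets near the offset, such as rc_AI145834_at, have no reliable log2 change.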

Other observations

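The controls of the 15 min nicotine run had higher signals of the early Nr4a probe sets than the controls of the other replicated runs. U17254_at read 3681, 5132 and 7193 in them, against 380.2 to 2903 in the other controls, and U17254_g_at read 6233, 10486 and 11469.6, against at most 4472. X86003_at read 2099, 1799 and 2132, against at most 1308. The late probe set rc_AI176710_at lay inside the range of the other controls. Of 8 probe sets of the early genes Fos, Egr1 and Junb, 4 lay above the controls of every other run and 4 overlapped them. The Fos probe set X03347cds_g_at read 7264 to 11741 in these controls, against at most 5782 in the controls of any other run, and the Egr1 probe set M18416_at read 22810 to 25204, against at most 15324. The Egr1 probe sets AF023087_s_at and rc_AI176662_s_at were the other 2. Another Fos probe set, X06769cds_at, read 3176 to 4094, inside the range of the repeat run's controls, which reached 7051, and X06769cds_g_at of Fos, U75398_s_at of Egr1 and X54686cds_at of Junb overlapped too, with 12357 to 18047, 2738 to 3360 and 1783 to 2687 against up to 15605, 3285 and 2065. For X06769cds_at, X06769cds_g_at and U75398_s_at only the repeat run's controls, which include arrays that stand apart, overlapped. The controls of the remaining runs reached 1928, 8540 and 1479 there. The early genes were picked after their values were seen. These runs were not fitted together, and what moved with the difference was not tested.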
